A study of Homo sapiens with 12 samples.

Results

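The response of NCM460 cells to TNF-α was described over the 11146 genes whose mean expression over 6 libraries was at least 1 FPKM, out of 58735 genes in the deposited table. FPKM is the number of fragments on a gene, scaled for the length of the gene and the depth of the library. NCM460 is a human line whose labels give normal colonic epithelium as its source, kept in DMEM with 10% fetal bovine serum. The 3 medium libraries came from wild-type cells in medium alone and the 3 TNF-α libraries from wild-type cells given TNF-α. The remaining 6 of the 12 libraries of the study, of wild-type cells with TNF-α and the methylated tryptamine 5-OH-TMT (labelled Bufotenidine) and of HTRA2 knockdown cells with TNF-α, entered the fit and are quoted only for single genes. The sources used here give neither the TNF-α dose nor the time of treatment for the libraries, and do not say whether the 3 libraries of a group were separate cultures, so the p-values measure the spread between these samples, which may be technical. All libraries were of 1 cell line. Of the 11146 genes, 9939 were protein coding. IL1R1, at a mean of 1.0002 FPKM over the 6 libraries, lay just inside the level that chose the genes, and AC018797.2, at 0.999 FPKM, just outside it.

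TNF-α is a cytokine that binds a receptor on the cell surface, TNFRSF1A, and through adaptor proteins frees NF-κB, a family of transcription factors held in the cytoplasm by inhibitor proteins, and activates MAP kinases. Epithelial cells answer by transcribing cytokines, adhesion molecules, survival proteins and the inhibitors that shut NF-κB off again. In the colon this signal is a target of treatment in inflammatory bowel disease. Most accounts of the response turn on NF-κB target genes. The values below follow the classes beyond them: receptors, which set what a cell can next respond to, secreted factors, which act on its neighbours, metabolic enzymes, and the genes that fell.

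The libraries were checked against markers of the cell types they could hold. All 10 general epithelial markers were at 1 FPKM or more, with a sum between 2314 and 2914 FPKM in medium and between 2457 and 2704 FPKM with TNF-α. None of 15 colonic epithelial markers reached 1 FPKM, and 14 of them were under 0.1 FPKM. The summed colonic markers came to 0.362 to 0.632 FPKM in medium and 0.450 to 0.509 FPKM with TNF-α, and CDX1, CDX2, GUCA2A, FABP1, CA1, SLC26A3 and GPA33 were at 0 in all 6 libraries. Of 9 markers of stratified squamous epithelium, 7 averaged 1 FPKM or more over the 6 libraries, among them KRT5 (125 FPKM in medium) and TP63 (13.3 FPKM in medium). The label of the line as colonic was therefore not borne out by its defining transcripts, and the cells are called NCM460 by the name of the line. Immune markers were near 0 in both groups, with a sum of 0.611 to 0.887 FPKM in medium and 0.336 to 0.483 FPKM with TNF-α over 10 genes, and 1 of 9 mesenchymal and 1 of 6 endothelial markers averaged 1 FPKM over the 6 libraries. The endothelial marker CDH5 (VE-cadherin) averaged less but rose, from 0.335 ± 0.0378 FPKM (SD, n = 3) to 1.32 ± 0.140 FPKM (SD, n = 3, log2 fold change 1.71 ± 0.18 (SE), adjusted p = 0.000112), while EGFL7 was at 9.83 and 9.80 FPKM and KDR at 0 in all 6 libraries.

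**Figure D1:**
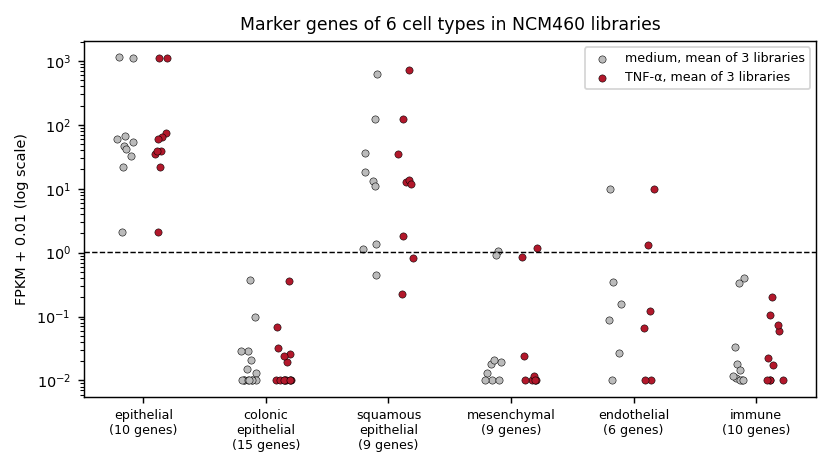
Expression of marker genes of 6 cell types in the NCM460 libraries, as mean FPKM + 0.01 per gene on a log axis, with a dashed line at 1 FPKM, medium and TNF-α side by side. General epithelial markers lie above 1 FPKM in both groups, whereas all 15 colonic markers lie below 1 FPKM and 7 of 9 squamous markers lie above it in both groups, with DSG3 above it in medium alone.

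Between 31008429 and 33469428 reads were counted on genes in the medium libraries and between 31526461 and 36115461 in the TNF-α libraries, so 3 reads on a gene of 1 kb correspond to 0.0805 to 0.0962 FPKM. Mitochondrial reads took 4.45% to 4.68% of the total in medium and 3.69% to 4.53% with TNF-α, where TNF-α replicate 3 was the lowest. Differences were tested with limma on log2(FPKM + 0.1), two-sided, with Benjamini-Hochberg adjustment over 18079 genes, and a gene is said to have risen or fallen where its adjusted p was under 0.05. An exact permutation test of 3 libraries against 3 cannot give a p below 0.1. The pseudocount of 0.1 FPKM makes the fold changes of the lowest genes too small. In bulk RNA a change in the number of cells that express a gene and a change in RNA per cell cannot be told apart.

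With TNF-α, 489 genes were higher and 124 lower, which is 4.39% and 1.11% of the 11146 genes. Over all 18079 genes of the fit the shares were 3.22% and 0.885%. The response was mostly upward, and its larger steps were too. Of the genes that rose, 99 were at least 2-fold higher on the log2(FPKM + 0.1) scale and 23 at least 4-fold. Of those that fell, 15 were at least 2-fold lower and 2 at least 4-fold. The median size of the log2 fold change was 0.62 among the genes that rose, 0.60 among those that fell and 0.11 over all 11146. The sum over the genes that rose went from 6877 to 11440 FPKM between the group means, and that over the genes that fell went from 3083 to 1919 FPKM. By the rule of the study for a differentially expressed gene, at least 2-fold with p up to 0.05 before adjustment (limma), 108 genes (0.969%) were higher and 29 (0.26%) lower. All 3 TNF-α libraries lay above all 3 medium libraries for 1445 genes (13.0%) and below them for 1090 (9.78%), and all 613 genes that passed the test were among these.

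The count of genes that fell was the less stable. It was 61 without medium replicate 2 and 77, 68 and 74 without TNF-α replicates 1, 2 and 3, and that of genes that rose stayed between 363 and 432 without any 1 library. A count model of the recovered reads gave 498 higher and 225 lower, or 68.9% higher against 79.8%.

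**Figure D2:**
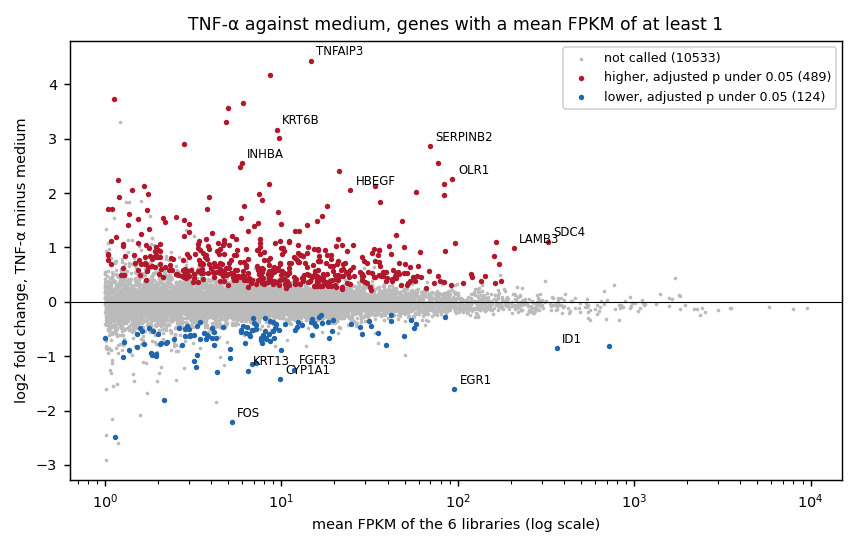
Log2 fold change between TNF-α and medium against mean expression over the 6 libraries for the 11146 genes, each point 1 gene, with the 489 genes that rose and the 124 that fell in colour. The genes that rose reach larger fold changes than those that fell, while most of the 10533 others lie close to 0.

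The annotation of transcription factor families in the deposited table covered 721 of these genes, of which 47 (6.52%) rose and 13 (1.8%) fell. Of all 11146 genes, 4.39% rose and 1.11% fell. Families were small, so counts are given without a test. Among 6 genes of the Rel homology family, which holds the NF-κB subunits, 3 rose, and so did 3 of 6 interferon regulatory factors and 4 of 17 ETS factors. The basic leucine zipper family, which holds the AP-1 subunits, moved both ways, with 6 of 33 higher and 3 lower. FOSL1, an AP-1 subunit, rose from 62.2 to 132 FPKM (log2 fold change 1.08 ± 0.17 (SE), adjusted p = 0.00231), and MAFF, a small Maf protein, from 2.28 to 5.17 FPKM (log2 fold change 1.15 ± 0.10 (SE), adjusted p = 2.99e-05). Of 270 zinc finger factors of the C2H2 type, the most numerous family, 6 rose and 3 fell, no more than the shares of all genes. Among non-coding genes, 6 of 243 long intergenic RNAs rose and 7 fell. Of 229 antisense RNAs 11 rose, close to the share of all genes, and 1 fell.

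Genes that rose lay close to each other in the genome. Of the 489, 91 (18.6%) lay within 100 kb of another gene that rose, whereas 978 of all 11146 genes (8.77%) lay within 100 kb of such a gene that rose. For the genes that fell, 14 of 124 (11.3%) had such a neighbour that fell, against 401 of all genes (3.6%). Runs of 3 or more included TAP2, PSMB8, PSMB8-AS1, PSMB9 and TAP1 (chr6:32821833-32859585), which serve the loading of peptides onto MHC class I, and the antiviral genes OAS1, OAS3 and OAS2 (chr12:112906777-113011723). Another held IRAK2 with VHL and TATDN2 (chr3:10141008-10281218). Coordinates are those of the deposited table on GRCh38. The sources used here do not say whether strand was used in counting, and overlapping genes such as TAP1 and PSMB9 could share reads. Among the named genes, 26 were overlapped by another gene with at least 0.1 times their mean FPKM, 19 of them by a gene on the opposite strand.

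At least 1 receptor rose on each of 7 lists of receptors. Of 7 TGF-β and BMP receptors only TGFBR2 rose, and it lost its call without TNF-α replicate 2 (adjusted p = 0.0528, limma). In all, 28 of 147 genes (19.0%) rose and 6 (4.08%) fell, against 4.39% and 1.11% of all genes, with a median log2 fold change of 0.06 against −0.0037 for all. Between 22 and 26 rose without any 1 library, and the 6 that fell became 2 without medium replicate 2 and 3 without any 1 TNF-α replicate. The rise was spread over cytokine receptors (6 of 24 rose and 1 fell), TNF superfamily receptors (3 of 13 rose), pattern recognition receptors (3 of 11 rose) and integrins and other adhesion receptors (8 of 28 rose and 1 fell). Among receptor tyrosine kinases, 2 of 20 rose and 2 fell, and among G protein-coupled receptors 5 of 44 rose and 2 fell. The 2 tyrosine kinases that fell became 1 without any 1 library, and the 2 that rose became 1 to 3. The 2 G protein-coupled receptors that fell became 1 without medium replicate 2.

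The sequences just before the start of 3 receptor genes that rose are shown because they carry the decamer that NF-κB binds, the κB motif, as found in RefSeq promoters on GRCh38.p14. Both strands were searched over the 250 bases before each start, and the capitals mark the match. The window of SDC4 is at chr20:45348502-45348531 on the minus strand (match at bases −97 to −88 from the start), that of IFNGR2 at chr21:33403304-33403333 on the plus strand (−99 to −90) and that of IL27RA at chr19:14031684-14031713 on the plus strand (−68 to −59).
SDC4: cgcttccactGGGGAATTCCgggcggggtg
IFNGR2: tcccggagcgGGAAAGTCCCgcgcgggggc
IL27RA: gccccagccgGGGACTTTCCgtcgcgggga

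A κB match stood before 67 of the 366 risen genes with a promoter in the RefSeq table (18.3%), 58 of 347 (16.7%) once the NF-κB target list was left out, 5 of 79 fallen genes (6.33%) and 963 of all 8133 matched genes (11.8%). Over all 27305 promoters of that length the share was 9.57%. The AP-1 motif TGANTCA stood before 7.38% of the risen genes, 5.06% of the fallen and 3.86% of all matched genes, and 6.6% of all promoters. A match is a description of these letters and says nothing of binding.

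Among cytokine receptors, both chains of the interferon-γ receptor rose. IFNGR2 (ENSG00000159128, chr21:33402896-33479348), the signalling chain, was at 23.5, 23.9 and 25.6 FPKM in medium and 48.4, 49.2 and 43.9 FPKM with TNF-α (log2 fold change 0.95 ± 0.07 (SE), adjusted p = 9.82e-06). IFNGR1, the ligand-binding chain, was at 7.99, 6.93 and 7.57 FPKM in medium and 11.9, 12 and 12.4 FPKM with TNF-α (log2 fold change 0.69 ± 0.07 (SE), adjusted p = 0.000101). In both genes the TNF-α libraries lay well above the medium libraries, with no overlap. IFNGR2 overlaps TMEM50B, which can share its reads. IL7R, the α chain of the interleukin-7 receptor, known best from lymphocytes, was at 3.94, 3.3 and 4.33 FPKM in medium and 10.2, 10.3 and 10.2 FPKM with TNF-α (log2 fold change 1.39 ± 0.14 (SE), adjusted p = 0.000102). IL27RA, a chain of the interleukin-27 receptor, rose from 14.1 to 24.3 FPKM (log2 fold change 0.78 ± 0.10 (SE), adjusted p = 0.000567). Their 4 sets of TNF-α libraries were tight, and no value overlapped with medium. IL20RB, a chain of the receptors for the interleukin-20 family, had a log2 difference of −0.24 (adjusted p = 0.0379), a call kept only without medium replicate 3 among the 6 libraries left out in turn (adjusted p 0.0674 to 0.138 without the others).

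The main receptor of TNF-α itself did not pass the test. TNFRSF1A, which binds TNF-α in most cells, had 65.6 ± 6.08 FPKM (SD, n = 3) in medium and 58.2 ± 2.62 FPKM (SD, n = 3) with TNF-α (log2 fold change −0.17 ± 0.09 (SE), adjusted p = 0.409). The death receptor TNFRSF10B, which binds TRAIL, rose from 12.3 to 20.9 FPKM (log2 fold change 0.75 ± 0.07 (SE), adjusted p = 4.87e-05), and TNFRSF21, another receptor with a death domain, from 69 to 89.5 FPKM (log2 fold change 0.37 ± 0.06 (SE), adjusted p = 0.00323). TNFRSF12A, CD40, LTBR and FAS, at 125, 12.3, 27.7 and 2.22 FPKM in medium, had adjusted p-values of 0.77, 0.276, 0.888 and 0.0813. Genes such as these, which are named for their role or their abundance without having passed the test, were chosen after their values were seen.

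The largest rise over the receptor lists was that of OLR1, a lectin-like receptor of oxidised low-density lipoprotein (ENSG00000173391, chr12:10158301-10172138). It stood at 32.8, 29 and 35.2 FPKM in medium and at 161, 148 and 155 FPKM with TNF-α (log2 fold change 2.26 ± 0.12 (SE), adjusted p = 4.50e-07), so its lowest TNF-α library was above 4 times its highest medium library. The RNA sensor IFIH1 (also called MDA5) rose from 6.6 to 10.5 FPKM (log2 fold change 0.67 ± 0.12 (SE), adjusted p = 0.00568). CGAS, the sensor of cytosolic DNA, rose too (log2 fold change 0.50, adjusted p = 0.0246), but lost its call without medium replicate 1 or 2 or TNF-α replicate 2 or 3 (adjusted p 0.0720 to 0.107).

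Growth factor receptors moved in opposite directions. EGFR, the receptor of the EGF family, was at 30.7, 26.2 and 27.8 FPKM in medium and 47.1, 46.5 and 40.7 FPKM with TNF-α (log2 fold change 0.66 ± 0.08 (SE), adjusted p = 0.000577). FGFR3, a receptor of fibroblast growth factors, was at 15, 18.9 and 15.9 FPKM in medium and 7.13, 6.9 and 6.62 FPKM with TNF-α (log2 fold change −1.25 ± 0.10 (SE), adjusted p = 1.12e-05). No EGFR library with TNF-α fell into the range of medium, and no FGFR3 library with TNF-α reached the lowest medium library. FGFR2 was lower, with −0.53 on the log2 scale (adjusted p = 0.0317), and its adjusted p was 0.0639 to 0.123 when any 1 of the 6 libraries was left out. DDR1, a collagen receptor kinase, was higher by 0.48 (adjusted p = 0.0123), with 0.0514 to 0.0608 without medium replicate 1, medium replicate 3 or TNF-α replicate 2. AXL, EPHA2 and MET, the most abundant of the other kinases with PTK7, had adjusted p-values of 0.484, 0.0798 and 0.077.

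Of the G protein-coupled receptors, the orphan receptor GPRC5B was at 3.47, 3.32 and 3.14 FPKM in medium and 12, 13 and 11.9 FPKM with TNF-α (log2 fold change 1.87 ± 0.09 (SE), adjusted p = 3.03e-07). It overlaps IQCK, whose reads it could share. GPR176 rose from 5.85 to 12.5 FPKM (log2 fold change 1.08 ± 0.07 (SE), adjusted p = 4.10e-06). The bradykinin receptor BDKRB2 rose from 1.2 to 2.02 FPKM (log2 fold change 0.70 ± 0.12 (SE), adjusted p = 0.00515), but overlaps the more abundant CKS1BP1, whose reads it could share. F2R, the thrombin receptor, went the other way, at 8.34, 8.49 and 8.49 FPKM in medium and 5.94, 6.14 and 5.8 FPKM with TNF-α (log2 fold change −0.49 ± 0.08 (SE), adjusted p = 0.00264). P2RY2, a receptor of extracellular nucleotides, fell (log2 fold change −0.68, adjusted p = 0.0122, or 0.0587 without medium replicate 2).

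Adhesion receptors held some of the most abundant changes. SDC4, a heparan sulfate proteoglycan of focal adhesions (ENSG00000124145, chr20:45325288-45348424), was at 198, 211 and 208 FPKM in medium and 432, 459 and 441 FPKM with TNF-α (log2 fold change 1.11 ± 0.09 (SE), adjusted p = 1.23e-05). SDC1, the syndecan typical of epithelium, was at 62.3, 74 and 64.2 FPKM in medium and 49.1, 50.7 and 50.1 FPKM with TNF-α (log2 fold change −0.42 ± 0.09 (SE), adjusted p = 0.0153), and its adjusted p was 0.0506 to 0.0645 without medium replicate 2 or without any 1 TNF-α replicate. The pair thus moved apart, SDC4 to more than its medium level in every TNF-α library and SDC1 to less. CD47, the signal that restrains phagocytes, rose from 6.99 to 15 FPKM (log2 fold change 1.09 ± 0.10 (SE), adjusted p = 4.87e-05), and ITGA2, the collagen-binding integrin chain, from 10.9 to 21.4 FPKM (log2 fold change 0.98 ± 0.10 (SE), adjusted p = 0.000131). ITGB6 and ITGB8, the integrin chains that activate latent TGF-β, rose by 0.87 and 0.96 (adjusted p = 0.00829 and 0.00117) and were picked for this role after their values were seen. ITGB4, ITGA3 and ITGA6, integrin chains of the basal epithelial surface and the most abundant of the list, had log2 fold changes of −0.02, −0.01 and 0.19 (adjusted p = 0.953, 0.984 and 0.362).

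**Figure D3:**
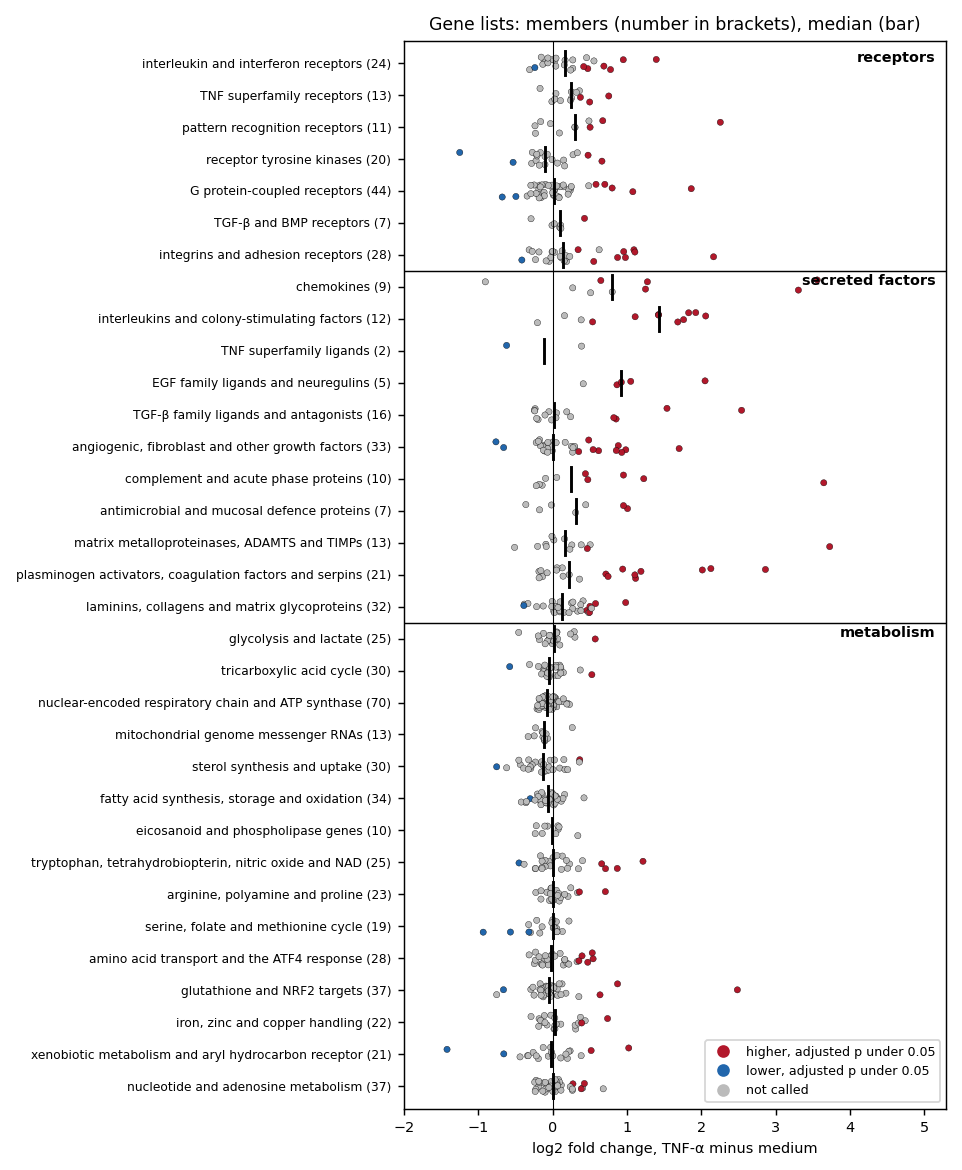
Log2 fold change between TNF-α and medium for each gene of the receptor, secreted factor and metabolism lists, with genes that rose or fell in colour and the median of each list as a bar. The medians of the interleukin and EGF ligand lists lie furthest to the right, and the points of the respiratory chain lie around 0 with none in colour.

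Secreted factors had the highest share of risen genes among the classes beyond TNF signalling. Over 11 lists, 53 of 159 genes (33.3%) rose and 4 (2.52%) fell, with a median log2 fold change of 0.24, and between 50 and 52 rose without any 1 library. Some of these genes are also on the NF-κB target list, and outside it 44 of 150 rose. The 4 that fell became 2 without medium replicate 2 or TNF-α replicate 1 or 2. Of 12 interleukins and colony-stimulating factors 9 rose, of 9 chemokines 5, of 5 EGF family ligands 4, of 21 plasminogen activators, coagulation factors and serpins 9, and of 10 complement and acute phase genes 5, which became 3 without TNF-α replicate 1 or 3. Outside the NF-κB target list 2 of 6 chemokines and 2 of 7 complement and acute phase genes rose. A gene low in medium could reach 1 FPKM over the 6 libraries through its rise, which can raise the shares of every list. CSF2, EBI3, CXCL8, CXCL1 and CXCL2 were at 0.438, 0.448, 0.693, 0.791 and 0.918 FPKM in medium. Of the TNF superfamily ligands 2 reached 1 FPKM, and 1 of them, TNFSF9 (4-1BB ligand), was lower (4.66 FPKM in medium and 3.01 FPKM with TNF-α, log2 fold change −0.62 ± 0.11 (SE), adjusted p = 0.00524). That gene does not stand for the family. Under 1 FPKM over the 6 libraries, LTB rose from 0.0135 to 1.34 FPKM and TNF from 0.00609 to 0.443 FPKM. CD70 rose there from 0.333 to 1.13 FPKM and TNFSF15 from 0.429 to 0.826 FPKM.

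Windows before 4 secreted factors that rose are shown for the same motif. They lie at chr19:4229299-4229328 on the plus strand for EBI3 (−214 to −205), chr5:53480572-53480601 on the plus strand for FST (−47 to −38), chr4:176793023-176793052 on the minus strand for VEGFC (−120 to −111) and chr1:209652465-209652494 on the minus strand for LAMB3 (−59 to −50), read from RefSeq on GRCh38.p14 with the match in capitals.
EBI3: ccccaccctcGGGGCCTTCCgagcaggggt
FST: cgcaaaccgcGGAGACCCCCgtctagattt
VEGFC: cgagggaaacGGGGAGCTCCagggagacgg
LAMB3: cacccagccaGGGAGTCTCCagaggtgagg

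Among the cytokines, both interleukin-1 agonists rose. IL1A (ENSG00000115008, chr2:112773915-112784590) was at 16.2, 14.6 and 16.5 FPKM in medium and 56.1, 53.5 and 59.7 FPKM with TNF-α (log2 fold change 1.83 ± 0.14 (SE), adjusted p = 8.34e-06). IL1B was at 7.63, 8.76 and 8.41 FPKM in medium and 29.1, 26.1 and 29.7 FPKM with TNF-α (log2 fold change 1.76 ± 0.13 (SE), adjusted p = 7.26e-06). Their sum went from 24.1 ± 0.797 FPKM (SD, n = 3) to 84.7 ± 4.91 FPKM (SD, n = 3), and the TNF-α libraries were all above 3 times the medium ones. IL1RN, the antagonist that competes with both, was at 1.74 and 1.95 FPKM (adjusted p = 0.706). CSF2 (GM-CSF) was at 0.293, 0.475 and 0.545 FPKM in medium and 1.04, 2.08 and 4.16 FPKM with TNF-α (log2 fold change 2.06 ± 0.38 (SE), adjusted p = 0.00762). Its TNF-α libraries lay far apart, and the log2 fold change was 1.58 without TNF-α replicate 3 (adjusted p = 0.0174). EBI3, a chain shared by interleukin-27 and interleukin-35, rose from 0.448 to 1.96 FPKM (log2 fold change 1.93 ± 0.25 (SE), adjusted p = 0.000581). Of the others that rose, IL23A rose by 1.68 on the log2 scale, LIF by 1.43, CSF1 by 1.42 and IL24 by 1.11 (adjusted p = 0.00136, 2.28e-05, 4.87e-05 and 0.00294), named after their values were seen. IL18, which epithelium stores as a precursor, was at 16.8 ± 0.438 FPKM (SD, n = 3) in medium and 22 ± 2.47 FPKM (SD, n = 3) with TNF-α (adjusted p = 0.0517).

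The chemokine CCL5, which draws T cells, rose from 1.69 to 4.29 FPKM (log2 fold change 1.28 ± 0.24 (SE), adjusted p = 0.00783). The neutrophil chemokines CXCL8 and CXCL1 rose by 3.56 and 3.31 (adjusted p = 1.07e-06 and 1.55e-07). CXCL1 and CXCL2 are near-identical copies, and how reads were split between them is uncertain. CCL26, an eosinophil chemokine, was at 3.92, 3.75 and 2.25 FPKM in medium and 1.31, 1.5 and 2.36 FPKM with TNF-α (log2 fold change −0.91 ± 0.33 (SE), adjusted p = 0.187), where neither group was tight.

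The ligands of EGFR rose together with their receptor. HBEGF, a heparin-binding ligand (ENSG00000113070, chr5:140332843-140346631), was at 9.87, 9.34 and 9.21 FPKM in medium and 38.8, 36.7 and 43.5 FPKM with TNF-α (log2 fold change 2.05 ± 0.11 (SE), adjusted p = 4.74e-07). AREG (amphiregulin) rose from 58.3 ± 0.122 to 111 ± 12.2 FPKM (SD, n = 3, log2 fold change 0.92 ± 0.10 (SE), adjusted p = 0.000131), EREG (epiregulin) from 16.6 ± 2.32 to 34.4 ± 4.28 FPKM (SD, n = 3, log2 fold change 1.05 ± 0.14 (SE), adjusted p = 0.000756) and TGFA from 13.4 ± 0.331 to 24.6 ± 2.05 FPKM (SD, n = 3, log2 fold change 0.87 ± 0.09 (SE), adjusted p = 8.10e-05). The 4 ligands summed to 97.8 ± 2.66 FPKM (SD, n = 3) in medium and 210 ± 19.8 FPKM (SD, n = 3) with TNF-α. NRG1, which binds ERBB3 and ERBB4 rather than EGFR, was at 1.8 and 2.43 FPKM and did not pass (adjusted p = 0.0776). Of 16 genes listed for feedback on the ERK pathway, which EGFR drives, 5 rose and none fell (median log2 fold change 0.29). Among them were the ERK phosphatase DUSP6 (log2 fold change 0.72 ± 0.08 (SE), adjusted p = 0.000282) and ERRFI1, an inhibitor of EGFR (log2 fold change 0.44 ± 0.07 (SE), adjusted p = 0.00254). CCND1 (log2 fold change 0.56 ± 0.08 (SE), adjusted p = 0.00197) was counted there too, but is a gene of cell division rather than of feedback.

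In the TGF-β family, an agonist and its antagonist rose side by side. INHBA, the activin A subunit (ENSG00000122641, chr7:41667168-41705834), was at 1.73, 1.64 and 1.66 FPKM in medium and 10.6, 10.1 and 10.1 FPKM with TNF-α (log2 fold change 2.54 ± 0.13 (SE), adjusted p = 4.50e-07). FST (follistatin), which binds and neutralises activin, was at 2.69, 3.46 and 2.76 FPKM in medium and 7.55, 9.8 and 9.13 FPKM with TNF-α (log2 fold change 1.54 ± 0.15 (SE), adjusted p = 7.98e-05). The level of INHBA in each TNF-α library was above 5 times that in any medium library. NOG (noggin), an antagonist of bone morphogenetic proteins (BMPs), rose from 2.62 to 4.74 FPKM (log2 fold change 0.82 ± 0.15 (SE), adjusted p = 0.00833). TGFB2 was higher by 0.85 (adjusted p = 0.0112), with 0.0509 and 0.0532 without medium replicate 1 and TNF-α replicate 2. TGFB1 and GDF15, at 22.4 and 44 FPKM in medium, had adjusted p-values of 0.67 and 0.593.

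Of 33 angiogenic and other growth factors, 9 rose and 2 fell. WNT4 rose from 0.465 to 1.74 FPKM (log2 fold change 1.7 ± 0.12 (SE), adjusted p = 5.63e-06), and VEGFC, the lymphatic growth factor, from 6.66 to 13.3 FPKM (log2 fold change 0.98 ± 0.09 (SE), adjusted p = 2.99e-05). VEGFA, the main angiogenic factor, rose less (from 16.1 to 20.6 FPKM, log2 fold change 0.35 ± 0.07 (SE), adjusted p = 0.0107). FGFBP1, a carrier that releases fibroblast growth factors from the matrix, fell, at 8.54, 10.5 and 9.12 FPKM in medium and 5.88, 5.43 and 6.39 FPKM with TNF-α (log2 fold change −0.66 ± 0.10 (SE), adjusted p = 0.00155). It fell alongside the receptor FGFR3. SEMA3F, a repellent guidance factor, was lower (log2 fold change −0.76, adjusted p = 0.014), with 0.0560 to 0.0690 without medium replicate 2 or TNF-α replicate 1 or 2.

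The plasminogen system and its inhibitors made up a large part of the transcripts gained. PLAU, the urokinase that turns plasminogen into plasmin (ENSG00000122861, chr10:73909177-73917497), was at 12.4, 13.7 and 11.8 FPKM in medium and 55.1, 52.5 and 59.2 FPKM with TNF-α (log2 fold change 2.13 ± 0.11 (SE), adjusted p = 3.36e-07). Its receptor PLAUR rose from 6.96 to 15.1 FPKM (log2 fold change 1.12 ± 0.12 (SE), adjusted p = 0.000115). SERPINB2 (PAI-2), which inhibits it, was at 17.2, 16.6 and 16.4 FPKM in medium and 109.9, 127 and 132 FPKM with TNF-α (log2 fold change 2.86 ± 0.12 (SE), adjusted p = 6.28e-08). Protease, receptor and inhibitor thus rose. F3 (tissue factor), the starter of coagulation, was at 116, 96.4 and 101 FPKM in medium and 212, 242 and 222 FPKM with TNF-α (log2 fold change 1.11 ± 0.09 (SE), adjusted p = 1.01e-05), and while F3 rose the thrombin receptor F2R fell. PLAUR was added after its values were seen, as the receptor of PLAU.

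**Figure D4:**
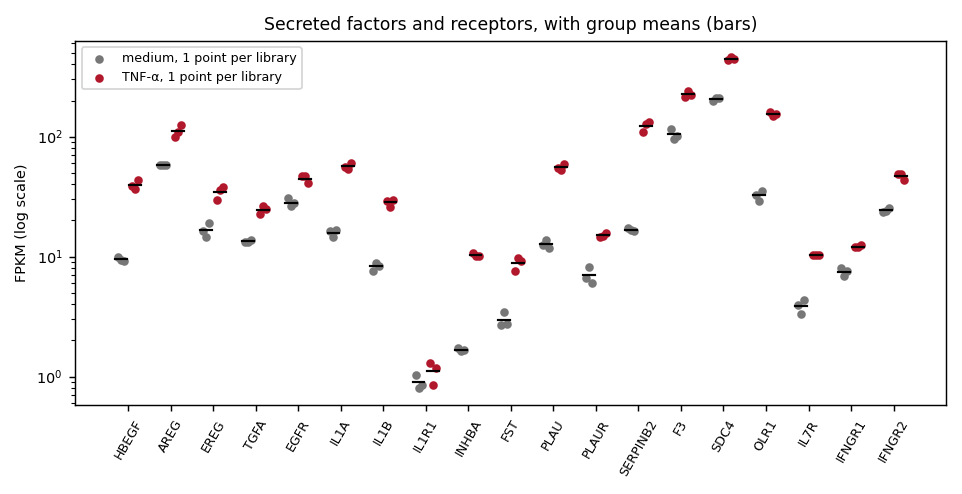
FPKM in each of the 3 medium and 3 TNF-α libraries for 19 genes of ligands, proteases and receptors on a log axis, with 1 point per library and a bar for the group mean. The TNF-α points of 18 genes lie above their medium points, as for HBEGF (9.21 to 9.87 against 36.7 to 43.5 FPKM), and those of IL1R1 overlap.

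Among matrix genes, 5 of 32 rose and 1 fell (median 0.13), and the 5 became as few as 3 without medium replicate 2 or 3 or TNF-α replicate 1. THBS1 and TNC, matricellular glycoproteins, lost their calls without any of these or without TNF-α replicate 2 (0.0548 to 0.132 and 0.125 to 0.158). Chains of the epithelial laminin of the basement membrane were among those that rose. LAMB3 (ENSG00000196878) was at 142, 149.6 and 129 FPKM in medium and 268, 281 and 279 FPKM with TNF-α (log2 fold change 0.98 ± 0.10 (SE), adjusted p = 0.000124), and LAMA3 rose from 17.5 to 26.2 FPKM (log2 fold change 0.58 ± 0.08 (SE), adjusted p = 0.00102). LAMB2, the β chain of other laminins, was lower (log2 fold change −0.39, adjusted p = 0.0247), with 0.0525 to 0.104 without medium replicate 2 or any 1 TNF-α replicate. The matrix protein FN1 was at 145 ± 16.4 FPKM (SD, n = 3) in medium and 202 ± 13.1 FPKM (SD, n = 3) with TNF-α (adjusted p = 0.0524). Of the matrix metalloproteinases, ADAMTS and TIMPs, MMP9 and ADAMTS12 of 13 rose, and TIMP1, MMP14, TIMP3 and TIMP2, the most abundant, had adjusted p-values of 0.474, 0.669, 0.589 and 0.972.

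In defence, SAA1, an acute phase protein, was at 0.363, 0.665 and 1.62 FPKM in medium and 10.4, 6.77 and 16.5 FPKM with TNF-α (log2 fold change 3.65 ± 0.40 (SE), adjusted p = 0.00018), and its copy SAA2 could share its reads. Complement component C3 rose from 26.7 to 62.6 FPKM (log2 fold change 1.23 ± 0.10 (SE), adjusted p = 1.88e-05), and CD59, which protects host cells from complement, from 13.1 to 18.2 FPKM (log2 fold change 0.47 ± 0.07 (SE), adjusted p = 0.000989). S100A9, a calprotectin subunit, rose from 32.9 to 65.9 FPKM (log2 fold change 1.01 ± 0.17 (SE), adjusted p = 0.0043). LCN2, which withholds iron from bacteria, was higher by 0.95 (adjusted p = 0.0374), but passed only without TNF-α replicate 2 among the 6 libraries left out in turn (0.0637 to 0.139 without the others). SLPI, the most abundant antimicrobial protein here, was at 86.6 and 107 FPKM (adjusted p = 0.141).

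Metabolic genes moved both ways. Of 420 genes on 15 lists, 24 (5.71%) rose and 10 (2.38%) fell, against the 4.39% and 1.11% of all genes, with a median of −0.05. Without any 1 library 15 to 22 rose and 4 to 10 fell, with 15 and 4 without TNF-α replicate 2, and 5, 5 and 6 lower without medium replicate 2, medium replicate 3 and TNF-α replicate 3. None of the 70 nuclear-encoded respiratory chain genes, the 13 mitochondrial messenger RNAs or the 10 eicosanoid genes passed, with medians of −0.08 and −0.11 for the former pair of lists. In glycolysis 1 of 25 genes passed. HK2, a hexokinase at the entry of glycolysis, rose from 15.8 to 23.5 FPKM (log2 fold change 0.57 ± 0.09 (SE), adjusted p = 0.00182), whereas GAPDH, ENO1 and LDHA had log2 fold changes of −0.19, −0.04 and 0.06 (adjusted p = 0.518, 0.907 and 0.753). The glucose transporter SLC2A1, at 113 FPKM in medium, did not pass (log2 fold change −0.03, adjusted p = 0.935). SLC2A6, a lysosomal member of the same family, was at 3.02, 3.05 and 2.79 FPKM in medium and 11.8, 12.9 and 11.1 FPKM with TNF-α (log2 fold change 1.98 ± 0.15 (SE), adjusted p = 8.28e-06), one of the 10 largest rises outside the NF-κB target list.

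Individual enzymes rose. SOD2, the mitochondrial superoxide dismutase and an NF-κB target, rose from 1.71 ± 0.232 to 10 ± 1.57 FPKM (SD, n = 3, log2 fold change 2.49 ± 0.20 (SE), adjusted p = 1.18e-05), and overlaps WTAP. KYNU, kynureninase of tryptophan breakdown, was at 1.62, 1.42 and 1.9 FPKM in medium and 3.92, 3.47 and 4.46 FPKM with TNF-α (log2 fold change 1.22 ± 0.14 (SE), adjusted p = 0.000193). NAMPT, the rate-limiting enzyme of NAD salvage, rose from 8.62 to 14.1 FPKM (log2 fold change 0.71 ± 0.12 (SE), adjusted p = 0.00402), and PARP14, which consumes NAD, from 5.35 to 9.85 FPKM (log2 fold change 0.87 ± 0.12 (SE), adjusted p = 0.00121). GCH1, the entry enzyme of tetrahydrobiopterin, was higher by 0.66 (adjusted p = 0.0399), with 0.0867 to 0.151 without medium replicate 1 or 2 or TNF-α replicate 2 or 3. CYP27B1, which makes active vitamin D, rose from 0.801 to 1.72 FPKM (log2 fold change 1.02 ± 0.19 (SE), adjusted p = 0.00722), but overlaps the more abundant METTL1, whose reads it could share. SLC39A8, a zinc importer, rose from 4.33 to 7.27 FPKM (log2 fold change 0.74 ± 0.10 (SE), adjusted p = 0.00102), and the aldose reductase AKR1B1 from 41.8 to 65 FPKM (log2 fold change 0.64 ± 0.09 (SE), adjusted p = 0.00145).

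In the tricarboxylic acid list 1 of 30 genes rose and 1 fell, both for cytosolic enzymes. IDH1, the cytosolic NADPH-forming isocitrate dehydrogenase, was at 41, 40.1 and 46 FPKM in medium and 30.4, 27.2 and 27.3 FPKM with TNF-α (log2 fold change −0.58 ± 0.08 (SE), adjusted p = 0.00083). ACO1, the cytosolic aconitase that doubles as an iron sensor, rose from 6.22 to 9.02 FPKM (log2 fold change 0.53 ± 0.08 (SE), adjusted p = 0.00187). CS, FH and SDHB had adjusted p-values of 0.69, 0.213 and 0.724. In lipid synthesis the test passed SQLE higher and TM7SF2 lower of 30 sterol genes and ELOVL6 lower of 34 fatty acid genes. Each lost its call when some library was left out: SQLE without medium replicate 1 or TNF-α replicate 2 (0.0535 to 0.0567), TM7SF2 without medium replicate 2 or 3 or TNF-α replicate 2 or 3 (0.0659 to 0.0969), and ELOVL6 without medium replicate 1 or 3 or TNF-α replicate 2 or 3 (0.0851 to 0.113). FASN and SCD, the leading enzymes of fatty acid synthesis, had log2 fold changes of −0.36 and −0.42 (adjusted p = 0.167 and 0.101).

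The fallen genes of metabolism were led by CYP1A1. CYP1A1, a monooxygenase induced by the aryl hydrocarbon receptor (ENSG00000140465, chr15:74719542-74725610), was at 13.5, 15.4 and 14 FPKM in medium and 5.17, 4.64 and 6.09 FPKM with TNF-α (log2 fold change −1.42 ± 0.12 (SE), adjusted p = 2.27e-05). ALDH3B1, an aldehyde dehydrogenase, fell from 10.1 to 6.29 FPKM (log2 fold change −0.66 ± 0.11 (SE), adjusted p = 0.00528). Of 21 genes listed for the same receptor or for xenobiotic metabolism, both of these fell and 2 rose. The 2 that rose are genes of vitamin D rather than of that receptor or of detoxification. They were CYP27B1, as above, and VDR, the vitamin D receptor (log2 fold change 0.52 ± 0.11 (SE), adjusted p = 0.0223), which lost its call without medium replicate 2 or 3 or TNF-α replicate 1 or 2 (0.0668 to 0.101). NQO1 was at 124 and 114 FPKM (adjusted p = 0.377). FOLR1, the folate receptor, was at 2.36, 2.7 and 2.21 FPKM in medium and 1.51, 0.915 and 1.3 FPKM with TNF-α (log2 fold change −0.94 ± 0.15 (SE), adjusted p = 0.0036). The serine, folate and methionine list had 3 of 19 lower and none higher, but SHMT1 lost its call in 5 of the 6 leave-outs, all but without medium replicate 1 (0.0516 to 0.126), and CTH likewise, all but without TNF-α replicate 3 (0.0554 to 0.165).

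The genes that fell included factors of the immediate-early response. FOS, an AP-1 subunit (ENSG00000170345), was at 7.98, 8.92 and 9.08 FPKM in medium and 1.69, 1.84 and 1.82 FPKM with TNF-α (log2 fold change −2.21 ± 0.12 (SE), adjusted p = 5.45e-07), and EGR1, a zinc finger factor of the same response (ENSG00000120738, chr5:138465490-138469315), at 147, 140.3 and 143 FPKM in medium and 47.3, 52.2 and 42.1 FPKM with TNF-α (log2 fold change −1.61 ± 0.09 (SE), adjusted p = 7.34e-07). Of 26 immediate-early genes, however, 6 rose and 3 fell, so the list split. The fall of IER2 (log2 fold change −0.54) lost its call without any 1 library (adjusted p 0.0644 to 0.150). The 3 that fell became 2 in each of these leave-outs. JUNB, MYC and IER3 had adjusted p-values of 0.328, 0.937 and 0.081. FOS and EGR1 are classical targets of the serum response factor, which binds the CArG motif. Both CArG matches in the 250 bases before EGR1 are shown for that reason, in RefSeq sequence on GRCh38.p14, plus strand, at chr5:138465364-138465393 (−105 to −96) and chr5:138465386-138465415 (−83 to −74), with the match in capitals.
EGR1, upstream: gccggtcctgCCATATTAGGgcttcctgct
EGR1, downstream: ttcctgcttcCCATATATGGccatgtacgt

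CArG matches were rare, before 1.14% of all promoters, 0.959% of all matched genes and 6 of 366 risen genes (1.64%). Among 79 fallen genes 2 had a match (2.53%), EGR1 and CYP1A1, and FOS was not among them. The match of CYP1A1, at −34 to −25, holds the letters TATAAA. Binding of the serum response factor was not tested. Of the bZIP factors, NFE2, an erythroid subunit, was at 9.05, 11 and 8.46 FPKM in medium and 4.53, 4.07 and 4.05 FPKM with TNF-α (log2 fold change −1.15 ± 0.13 (SE), adjusted p = 0.000175), and DBP, a clock output factor, fell from 6.63 to 3.55 FPKM (log2 fold change −0.87 ± 0.16 (SE), adjusted p = 0.00829). DBP overlaps SPHK2. The other 14 clock genes did not pass, with PER1 and NR1D1 at adjusted p = 0.756 and 0.749. FOXO6, a forkhead factor, was at 2.2, 4.65 and 3.45 FPKM in medium and 0.614, 0.803 and 1.3 FPKM with TNF-α (log2 fold change −1.81 ± 0.34 (SE), adjusted p = 0.00805), where the medium libraries spread over more than a 2-fold range. CEBPA, a differentiation factor that was picked after its values were seen, fell from 4.47 to 2.2 FPKM (log2 fold change −0.98 ± 0.12 (SE), adjusted p = 0.000411), while CEBPB was higher by 0.47 (adjusted p = 0.0172, 0.0662 to 0.0796 without medium replicate 1 or TNF-α replicate 2 or 3).

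ID1, an inhibitor of helix-loop-helix factors and a BMP target, lost the most FPKM after RN7SL2 among the genes that fell. It was at 415, 536 and 453 FPKM in medium and 268, 233 and 275 FPKM with TNF-α (log2 fold change −0.85 ± 0.11 (SE), adjusted p = 0.00068). ID3 was at 27.4 and 20.2 FPKM (adjusted p = 0.0755). In the same list of 16 BMP and TGF-β response genes, 3 rose. Among them PMEPA1, a target of TGF-β signalling, went from 7.59 to 20.4 FPKM (log2 fold change 1.42 ± 0.10 (SE), adjusted p = 8.10e-06), and overlaps NKILA. SMAD3, which transmits that signal, went from 15.7 to 26.4 FPKM (log2 fold change 0.75 ± 0.08 (SE), adjusted p = 0.000108).

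Notch genes moved in both directions. Of 17, JAG1, a ligand, rose from 2.8 to 4.3 FPKM (log2 fold change 0.61 ± 0.11 (SE), adjusted p = 0.00826), and JAG2, another ligand, fell from 8.14 to 5.63 FPKM (log2 fold change −0.52 ± 0.10 (SE), adjusted p = 0.00794). LFNG, a glycosyltransferase that tunes the receptor, fell from 11.5 to 7.95 FPKM (log2 fold change −0.52 ± 0.09 (SE), adjusted p = 0.00564). NOTCH3 was lower (log2 fold change −0.47, adjusted p = 0.0245), with 0.0592 to 0.0936 without medium replicate 2 or any 1 TNF-α replicate. HES1, a target of the pathway, was at 16.1 and 19 FPKM (adjusted p = 0.236).

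Keratins split as well. KRT6B, a keratin of wounded squamous epithelium, was at 2.33, 1.78 and 1.44 FPKM in medium and 16.7, 16.8 and 17.6 FPKM with TNF-α (log2 fold change 3.17 ± 0.18 (SE), adjusted p = 8.71e-07), and its near-identical copy KRT6A may share reads with it. KRT7, a keratin of simple epithelium, rose from 1.27 to 2.33 FPKM (log2 fold change 0.83 ± 0.16 (SE), adjusted p = 0.0101), but overlaps the more abundant KRT86, whose reads it could share. KRT13, a keratin of internal stratified epithelium, was at 6.82, 12.6 and 8.21 FPKM in medium and 3.91, 3.04 and 4.08 FPKM with TNF-α (log2 fold change −1.26 ± 0.20 (SE), adjusted p = 0.00254). KRT15 was lower (log2 fold change −0.60, adjusted p = 0.0219), with 0.0552 to 0.0948 without medium replicate 2 or 3 or TNF-α replicate 2. KRT8 and KRT18, the most abundant, had log2 fold changes of −0.05 and 0.02 (adjusted p = 0.888 and 0.948). Of 33 junction genes 2 rose and 2 were lower, TJP3 and PPL. TJP3 lost its call without any 1 library other than medium replicate 1 (0.0788 to 0.160), and PPL without medium replicate 1 or 2 or TNF-α replicate 3 (0.0734 to 0.0852). CLDN1, a claudin of tight junctions, was at 24.4, 24.1 and 27.5 FPKM in medium and 69.8, 72.1 and 71.3 FPKM with TNF-α (log2 fold change 1.49 ± 0.08 (SE), adjusted p = 4.50e-07), and CDH1 (E-cadherin) at 54.6 and 64.2 FPKM (adjusted p = 0.0687).

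The genes that lost the most FPKM included others outside the lists. FLOT1, a lipid raft protein, fell from 60.6 ± 7.42 to 39 ± 0.918 FPKM (SD, n = 3, log2 fold change −0.63 ± 0.08 (SE), adjusted p = 0.000791), and ALPP, placental alkaline phosphatase, from 49.4 ± 3.76 to 28.6 ± 2.82 FPKM (SD, n = 3, log2 fold change −0.79 ± 0.12 (SE), adjusted p = 0.00209). ALPP has near-identical copies in its family. RN7SL2, the RNA of the signal recognition particle, which lacks a poly(A) tail, was at 853, 932 and 958 FPKM in medium and 670.2, 406 and 517 FPKM with TNF-α (log2 fold change −0.81 ± 0.20 (SE), adjusted p = 0.0466), and was lost (0.0927 to 0.178) in every leave-out except that of TNF-α replicate 1. RBBP8NL fell from 4.61 to 2.0 FPKM (log2 fold change −1.2 ± 0.23 (SE), adjusted p = 0.01).

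**Figure D5:**
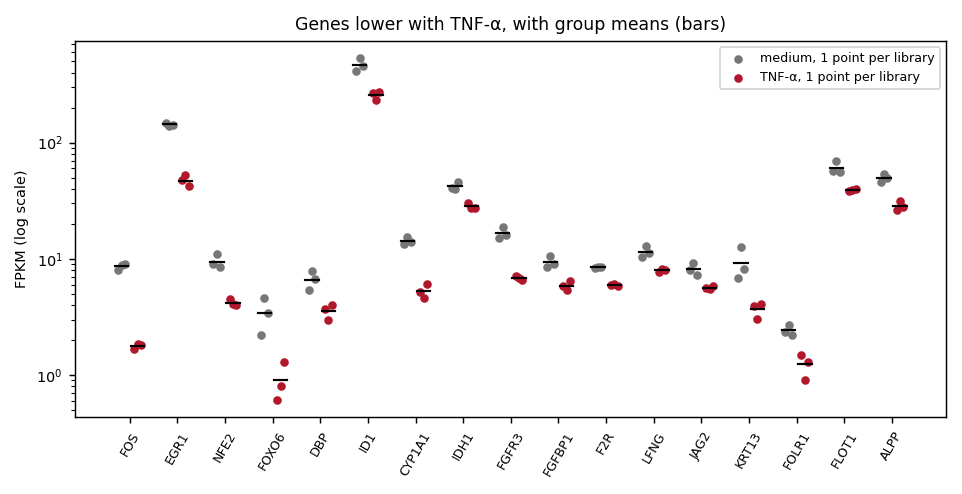
FPKM in each of the 3 medium and 3 TNF-α libraries for 17 genes that fell on a log axis, with 1 point per library and a bar for the group mean. The TNF-α points lie below the medium points of all 17, as for EGR1 (140 to 147 against 42.1 to 52.2 FPKM).

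Genes of growth and division are read against the 4.39% higher and 1.11% lower of all genes. Of 51 DNA replication genes only CCND1 passed, of 54 mitotic genes only CDC25C, which was lower (log2 fold change −0.29, adjusted p = 0.0355, and 0.0688 to 0.137 without each library in turn other than medium replicate 1), and none of 77 cytosolic ribosomal protein genes or 49 ribosome biogenesis genes did. Of 21 targets of YAP and TEAD 9 (42.9%) rose, among them CYR61 (log2 fold change 0.93 ± 0.13 (SE), adjusted p = 0.00108), a matrix-bound growth regulator, and NUAK2 (log2 fold change 1.15 ± 0.13 (SE), adjusted p = 0.000241), a kinase. Of 17 Wnt targets and regulators 7 (41.2%) rose, with SOX9, a progenitor factor, going from 13.5 to 22.3 FPKM (log2 fold change 0.71 ± 0.09 (SE), adjusted p = 0.000457). F3, IGFBP3 and TGFB2 are also on the YAP list, WNT4 and CCND1 on the Wnt list, so these counts are not independent of those above.

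Within TNF signalling itself, 54 of 128 genes (42.2%) rose and none fell. Of 26 NF-κB target genes 24 rose (median 2.09), and the exceptions were IER3 and NFKBIZ (adjusted p = 0.081 and 0.057). Outside that list the largest rise after that of KRT6B was seen in IRAK2, a kinase of interleukin-1 receptor signalling, at 2.06, 2.11 and 2.03 FPKM in medium and 16.9, 16.8 and 18.1 FPKM with TNF-α (log2 fold change 3.0 ± 0.10 (SE), adjusted p = 9.18e-09). Of 20 genes of antigen presentation by MHC class I, 13 rose (median 0.49), with the peptide transporter TAP1 going from 13.1 to 29.1 FPKM (log2 fold change 1.15 ± 0.10 (SE), adjusted p = 1.88e-05) and TAPBP, which bridges it to class I, from 42.1 to 79.5 FPKM (log2 fold change 0.91 ± 0.10 (SE), adjusted p = 0.000226). Of 35 interferon-stimulated genes 10 rose and none fell (median 0.19). GBP1, a guanylate-binding protein, rose from 2.75 to 9.54 FPKM (log2 fold change 1.75 ± 0.13 (SE), adjusted p = 9.82e-06), whereas ISG15 and IFITM3, the most abundant, had adjusted p-values of 0.826 and 0.73. The tapasin and TAP1 promoters hold a κB match, and the decamer of TAP1 has the same letters as that of IL27RA.

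The other libraries with TNF-α give levels to set beside these. They are other libraries of the same fit, and no difference from them was tested here. The 12 libraries include no control for the knockdown procedure. Its effects and those of HTRA2 loss therefore cannot be told apart in the knockdown libraries. EGR1, at 143 FPKM in medium and 47.2 with TNF-α, was at 79.7 FPKM with 5-OH-TMT added and 69.1 FPKM in the HTRA2 knockdown. FOS was at 8.66, 1.79, 3.18 and 2.18 FPKM in the same order, and FGFR3 at 16.6, 6.88, 9.49 and 11.7 FPKM. The level in all 3 groups with TNF-α was below that of medium for EGR1, FOS and FGFR3. CYP1A1 was at 14.3, 5.3, 16.6 and 7.47 FPKM, so its mean with 5-OH-TMT was above that of medium. SDC4 was at 206, 444, 460.3 and 783 FPKM and OLR1 at 32.3, 154, 152 and 262 FPKM, both highest in the knockdown.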

How the data were processed

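The authors deposited 1 table of FPKM per gene for 12 poly(T)-selected libraries prepared from Trizol-extracted RNA with a NEBNext Ultra kit. Per the submitters' processing notes, CASAVA 1.8, HISAT2 2.0.4, HTSeq 0.9.1 and hg38 were used. Strandedness is not given in the sources used here. The deposited values came to whole reads for 100% of entries within 0.02 reads, from which depth and floors of 3 reads were taken, and these cover counting error only. With limma 3.58.1 in R 4.3.3, a model of 4 group means (lmFit, eBayes with trend, 8 residual degrees of freedom) was applied on the scale of log2(FPKM + 0.1), to every gene averaging 0.1 FPKM or more over the 12 libraries, 18079 in all. The TNF-α minus medium contrast was adjusted by Benjamini-Hochberg over all of them, and the genes with a mean of at least 1 FPKM over the 6 libraries are described. On simulated data with 200 genes changed by 2 on the log2 scale, more than the median of 0.62 among the genes that rose, all 200 were recovered in each of 5 runs, with 11 to 14 false calls. The changed genes were drawn from well-covered genes, and a single low spread was set for all genes. Recovery of smaller changes, or of genes with few reads or a wide spread, was therefore not tested. No replicate pair was closer than sampling noise (chi-squared per degree of freedom 11.9 to 35.6).

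The genes and the 53 gene lists were chosen with earlier results of these data known. Named genes are the 10 with the largest rise and the 10 with the largest fall outside the NF-κB target list, up to 4 in each direction per list, and the 10 that gained and the 10 that lost most FPKM. This gave 170 genes, of which some are not reported here. Genes named for their role were chosen after their values were seen. Lists are described by counts and medians, with no test. Motifs were searched with Python 3.11.15 in RefSeq promoters (GRCh38.p14), matched by symbol for 8133 of the 11146 genes. Alternatives were other pseudocounts, filters, scalings, variance models, a replicate block, a count model (voom) and each library left out.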

Additional observations from a re-analysis of the deposited data

How the results depend on the processing

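All 170 named genes kept their direction in every alternative, 74 kept their call in all 18, and 126 in all 6 that left out 1 library. Leaving out 1 library gave 363 to 432 genes higher and 61 to 99 lower, and by the rule of the study 104 to 114 and 29 to 41. A pseudocount of 1 FPKM gave 66 higher and 13 lower by that rule, in place of 108 and 29, since it shrinks folds. The fit to the 6 libraries alone, with fewer degrees of freedom, gave 287 higher and 46 lower by adjusted p, and eBayes without trend gave 80 lower. Voom on the recovered reads gave 225 lower, and the cause was not tested. The replicate numbers were not shown to pair the libraries: the correlation of deviations of same-numbered medium and TNF-α libraries was 0.053, 0.093 and 0.105, although each medium library correlated best with its own number. The replicate block gave 144 higher and 12 lower in the 6 libraries, and 81 lower in the fit to 4 groups. Other scalings, filters and pseudocounts kept the counts within 1.5 times. Medians of lists that lie near 0 change sign between scalings. With 3 reads a gene of 1 kb is at 0.0805 to 0.0962 FPKM, so counting error is large for genes near that level. Groups of 3 libraries allow no check for a library that stands apart in a single gene.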

Other observations

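Another 6933 genes were tested but lay under 1 FPKM over the 6 libraries, and 93 of them rose and 36 fell (limma, adjusted p under 0.05). They held several secreted factors that are absent from the account above because of their level. Of the 93, 20 had no medium library with more than 3 reads, so only a lower bound of their rise can be given, against a floor of 3 reads per library. SAA2, the copy of SAA1, was at least 26.9-fold higher, with 67 to 121 reads per TNF-α library. TNFRSF9, the receptor of the ligand TNFSF9 that fell, was at least 10.7-fold higher, with 17 to 44 reads. CSF3 (G-CSF) was at least 8.88-fold higher, TNF itself at least 8.2-fold and CXCL10 at least 5.35-fold.

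Among genes of this level with reads in medium, chosen after their values were seen, IL32 went from a mean of 0.0384 to 1.28 FPKM (log2 fold change 3.32), PTX3, a soluble pattern recognition protein, from 0.0464 to 1.2 FPKM (3.13), and IL6 from 0.119 to 1.08 FPKM (2.48). EDN1 (endothelin-1) went from 0.321 to 1.22 FPKM and TLR2 from 0.436 to 0.975 FPKM. THBD (thrombomodulin), which turns thrombin into an anticoagulant, fell from 1.02 to 0.555 FPKM (log2 fold change −0.755), the opposite direction from F3. Values are on few reads, and for the lowest genes the pseudocount of 0.1 FPKM sets much of the fold change.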
